A study of Mus musculus with 11 samples.

Results

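Regulatory T (Treg) cells are the CD4 T cells that restrain immune responses, and Foxp3 is the transcription factor that defines them. The regions described here are the Foxp3 peaks of mouse Treg cells at which an ETS family factor, Elf1 or Ets1, gave a strong ChIP-seq position in Treg cells and none of equal standing in Foxp3-negative CD4 T cells. The regions were chosen by the rank of the Elf1 and Ets1 scores, which are measured values of these libraries. A position counted as strong when its score was among the 10000 highest of its library. A Foxp3 peak was a member when its midpoint lay within 300 bp of a strong Treg Elf1 or Treg Ets1 position and of no strong CD4 Elf1 or CD4 Ets1 position. Of the 2886 Foxp3 peaks, 256 met the rule, which is 8.87%. The other peaks comprised 335 with a strong position only in CD4 cells, 1999 with one in both cell types and 296 with none.

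The cells came from lymph nodes and spleen of mice about 8 weeks old and were sorted on a GFP reporter of Foxp3. Treg cells were Foxp3-positive CD4+ T cells. The comparison population, called CD4 below, was the Foxp3-negative CD4+ T cells of the same source. Chromatin was fixed and immunoprecipitated for Elf1 in Treg and in CD4, for Ets1 in Treg and in CD4, and for Cbfb in Treg, with 1 library for each, while the Foxp3 peaks came from 3 combined Treg libraries, of which a pair were technical replicates. No strain, further allele or treatment was given in the labels.

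ETS proteins bind DNA through a winged helix domain that reads a purine-rich core motif. In T cells Ets1 acts in survival and differentiation, and Elf1 is a widely expressed relative that occupies many promoters. Cbfb binds no DNA itself and stabilises Runx proteins on theirs, and Runx with Cbfb is known to act on the Foxp3 gene in Treg cells. The study asked, as far as is known of it, how Foxp3 binding relates to sites occupied in T cells that lack Foxp3, and the 256 regions are those where the strongest ETS positions differ toward Treg. The build of these coordinates is mm9 throughout, with positions as the files give them. Regions are given without gene names, since no annotation of this build was used here.

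The strong and weak sides of the rule were set by rank, so the values that follow on Elf1 and Ets1 at the members describe the choice and support nothing. The depth of each library is unknown, and each group had 1 library, so no difference between cell types had a replicate check and no test was possible. Intervals on shares are exact Clopper-Pearson 95% intervals and cover counting error only. A member is a 200 bp interval, and neighbouring intervals can share a position. Members with midpoints within 600 bp of each other formed 239 loci, and the 256 members had 240 distinct best Treg positions, 30 members sharing theirs with another.

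By the ranks that chose the members, strong Treg Ets1 was found at more of them than strong Treg Elf1. In Treg, 145 members (56.6%, 50.3 to 62.8) had a strong Ets1 position without a strong Elf1 position, 64 (25%, 19.8 to 30.8) had Elf1 without Ets1, and 47 (18.4%, 13.8 to 23.7) had both. Over all Foxp3 peaks 23.7% had Ets1 without Elf1, 17.2% had Elf1 without Ets1 and 37.2% had both. Strong Treg positions without a strong CD4 position within 300 bp were also commoner in the whole Ets1 list (42.8%) than in the Elf1 list (28.9%). At the 1999 peaks with strong ETS in both cell types, 51.4% (49.2 to 53.6) had both Treg factors strong and 27.0% had Ets1 without Elf1. Both Treg factors were thus strong at a smaller share of the members than of the shared peaks, by the ranks that chose the members.

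The regions lay toward the lower end of the strong Treg positions. The best Treg rank of a member ranged from 192 to 9943 with a median of 5026.5, against a median of 2277 at peaks with strong ETS in both cell types. Only 9 of 256 members had a Treg rank within the first 1000. Read the other way, 1.92% (0.881 to 3.61) of the 469 Foxp3 peaks with a Treg rank of 1 to 1000 were members, 12.4% (10.02 to 15.2) of the 659 with a rank of 2501 to 5000, and 31.3% (24.7 to 38.6) of the 182 with a rank of 7501 to 10000. The share of members thus rose through each step toward the limit.

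**Figure D1:**
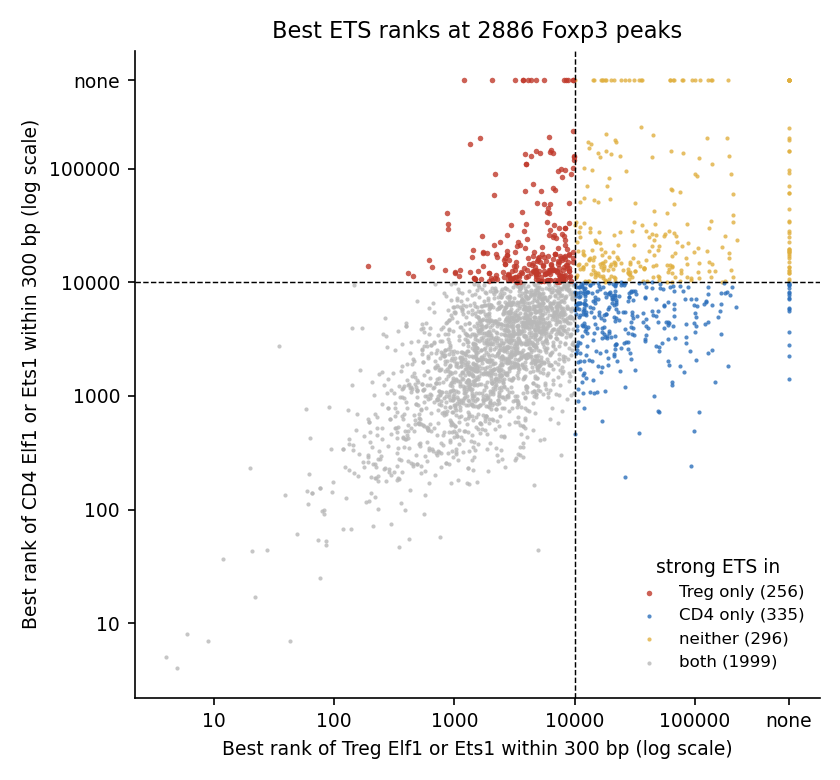
Each point is 1 of 2886 Foxp3 peaks, placed by the best rank of a Treg position (x) and of a CD4 position (y) of Elf1 or Ets1 within 300 bp, on log axes, with peaks that had no position at "none". Dashed lines mark rank 10000, and the 256 members (red) lie mostly just above the CD4 line and near the Treg line, with 14 at "none" for CD4.

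Nearly all members gained a CD4 position once the strong limit was dropped. With all deposited positions, 242 of 256 (94.5%, 91.0 to 97.0) had a CD4 Elf1 or Ets1 position within 300 bp. Over all Foxp3 peaks the share was 98.2%, and at the 296 peaks without strong ETS it was 86.8% (82.4 to 90.5). CD4 Elf1 was present at 204 members (over all peaks 93.5%), CD4 Ets1 at 216 (over all peaks 95.5%) and both at 178 (over all peaks 90.7%). Such positions were much rarer beside the peaks: at points 10 kb to either side of the members, 117 of 512 (22.9%, 19.3 to 26.7) had a CD4 position, near the 25.1% around all Foxp3 peaks.

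Most of these CD4 positions were not marginal within their own lists. At a false discovery rate (FDR) of at most 0.01, 211 members (82.4%, 77.2 to 86.9) had a CD4 position, against 95.3% over all Foxp3 peaks. At 144 members (56.2%, 49.9 to 62.4) a CD4 position had the lowest FDR that its list reports, which 89.9% of all Foxp3 peaks also had. That lowest value, 3.02e-05 in CD4 Elf1 and 0.000233 in CD4 Ets1, was shared by the first 16530 and the first 15044 positions. The limit of 10000 therefore fell among CD4 positions that the FDR did not separate.

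Ranks of the best CD4 position gathered close above the limit. The best CD4 rank lay above 10000 and up to 12500 at 82 members (32.0%), and up to 15000 at 126 members in all. Within the 20000 highest CD4 positions, 174 members (67.97%, 61.9 to 73.6) had one, against 92.2% of all Foxp3 peaks. The remaining members were spread thinly, with 24 between 20000 and 30000, 27 between 30000 and 100000, 17 beyond 100000 and 14 with none. The mirror class was less crowded at its limit: of the 335 peaks with strong ETS only in CD4, 147 (43.9%, 38.5 to 49.4) had a Treg position within the 20000 highest, and 318 (94.9%, 92.0 to 97.0) had one of any rank. Both classes ended at similar shares. The limit did not fall alike in the lists. In Treg the lowest FDR ended before rank 10000, covering the first 8009 Elf1 and the first 9681 Ets1 positions, while in CD4 it ran past that rank. Whether this bears on the different crowding was not tested.

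**Figure D2:**
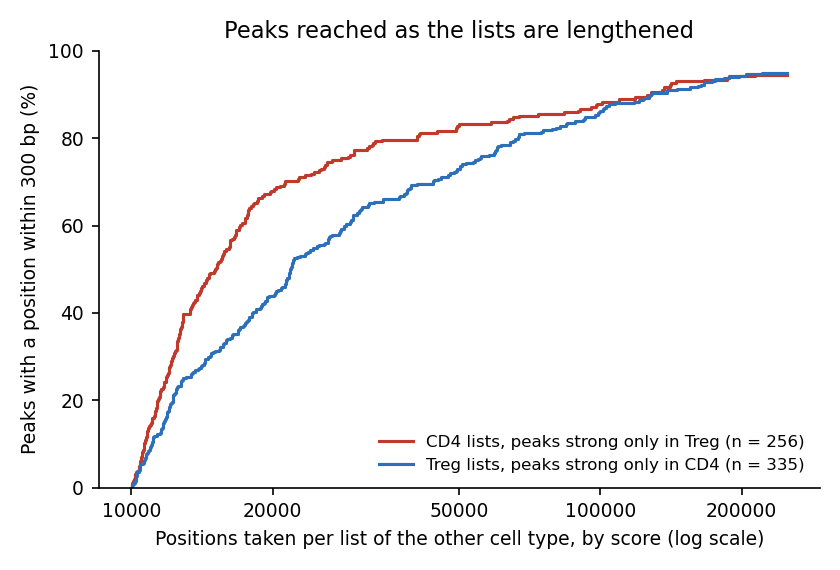
Share of peaks that gain a position in the other cell type (y, percent) as more positions per list are taken in order of score (x, log axis), for the 256 peaks strong only in Treg (red, CD4 lists) and the 335 peaks strong only in CD4 (blue, Treg lists). At 20000 positions the shares are 67.97% and 43.9%, and with all positions 94.5% and 94.9%.

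The same factor was usually found again in CD4. Of the 111 members with strong Treg Elf1, 95 had a CD4 Elf1 position, 87 with an FDR of at most 0.01 among them, and 12 of the others had CD4 Ets1 in its place. Of the 192 members with strong Treg Ets1, 164 had CD4 Ets1, 123 at that FDR, and 17 of the others had CD4 Elf1. The shares with the same factor at any rank were below those over all Foxp3 peaks, where 93.5% had CD4 Elf1 and 95.5% CD4 Ets1. At the peaks strong in both cell types they were 98.5% and 99.4%. Neither comparison was limited to peaks with that factor strong in Treg. The rule also removed peaks with a strong CD4 position from the members. No share by factor at that FDR was taken over all peaks. CD4 and Treg positions lay close together. The best Treg and the best CD4 position were separated by a median of 66 bp (quartiles 31.2 and 137 bp), against 41 bp (18 and 82 bp) at peaks strong in both cell types. From the midpoint of the Foxp3 peak, the best Treg position lay at a median of 66.5 bp and the best CD4 position at 53 bp.

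The 3 members nearest to the CD4 limit lay on chromosome 15, 57604370 to 57604570, with a CD4 Ets1 rank of 10007, and on chromosome 7, 82801364 to 82801564 and 82801477 to 82801677, which overlap and share a CD4 Ets1 position of rank 10030. Just outside, the peak on chromosome 7, 80740202 to 80740402, was kept out by CD4 Elf1 at rank 9982, and those on chromosome 12, 74699314 to 74699514, and chromosome 13, 20185402 to 20185602, by CD4 Ets1 at ranks 9908 and 9849. On the Treg side, the last members had best ranks of 9943 (chromosome 9, 107236910 to 107237110), 9824 (chromosome 18, 33130040 to 33130240) and 9786 (chromosome 4, 132215162 to 132215362). The first peaks left out for want of a strong Treg position had Ets1 ranks of 10090, 10103 and 10208. The ranks on either side of both limits ran close together.

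Among the 10 members with the best Treg ranks, Ets1 gave the best rank at 9 and Elf1 at 1. The highest was on chromosome 11, 86571352 to 86571552. There Treg Ets1 ranked 192 (32.6-fold) and Treg Elf1 5830 (13.6-fold), against CD4 Elf1 at rank 13767 (16.9-fold) and CD4 Ets1 at 64219 (9.04-fold). Both Treg positions lay 225 to 294 bp from the peak midpoint, at the margin of the window, while CD4 Elf1 lay 3 bp from it. A further Foxp3 peak 324 bp away had strong ETS in both cell types, so the membership of this region rests on the width of the window.

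The second was on chromosome 2, 139868259 to 139868459. Treg Ets1 (109.9-fold, rank 415) and Treg Elf1 (90.5-fold, rank 3210) were accompanied by Treg Cbfb at 34.0-fold, and CD4 Ets1 reached 64.3-fold at rank 12024. These folds are far above the medians of the members, and CD4 Ets1 shared them. A Foxp3 peak 331 bp away had strong ETS only in CD4.

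Other regions of this group showed a Treg excess in rank with modest folds. On chromosome 1, 93976806 to 93977006, Treg Ets1 ranked 455 (5.63-fold) and Treg Elf1 5676 (6.80-fold), against CD4 Elf1 at rank 11346 (4.97-fold) and CD4 Ets1 at 15089 (5.80-fold). Its Cbfb position ranked 1190 at 2.61-fold. The 4 ETS folds lay between 4.97 and 6.80, so at this region the cell types hardly differed in fold.

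On chromosome 10, 98238977 to 98239177, Treg Ets1 ranked 610 (8.27-fold) and Treg Elf1 15929 (5.94-fold), against CD4 Elf1 at rank 15786 (5.71-fold) and CD4 Ets1 at 85185 (3.91-fold). The difference was in Ets1, since the Elf1 ranks were nearly equal. On chromosome 5, 121135772 to 121135972, Treg Ets1 ranked 652 (7.44-fold) with no Treg Elf1, against CD4 Ets1 at rank 16491 (5.80-fold) and CD4 Elf1 at 13504 (2.86-fold). Here CD4 had a deposited Elf1 position within 300 bp and Treg had none. That CD4 Elf1 position lay 287 bp from the midpoint, near the edge of the window.

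On chromosome 18, 68387304 to 68387504, all 5 libraries had a position. Treg Elf1 reached 11.3-fold (rank 2594) and Treg Ets1 9.99-fold (rank 829), against 2.68-fold (rank 12887) for CD4 Elf1 and 2.95-fold (rank 14606) for CD4 Ets1. Treg Cbfb ranked 522 at 4.04-fold. The Treg fold exceeded the CD4 fold more than 3 times for each factor, and the positions of the cell types lay within 15 bp of each other for Elf1 and 3 bp for Ets1.

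The next 3 of the 10 had the lowest-placed best CD4 positions of the group by rank, though not by fold. On chromosome 2, 11576986 to 11577186, Treg Ets1 reached 19.3-fold (rank 870) and Treg Elf1 5.24-fold (rank 10542), against CD4 Elf1 at 9.39-fold (rank 40615) and no CD4 Ets1. On chromosome 11, 34495623 to 34495823, Treg Ets1 and Elf1 had only 2.55-fold and 2.52-fold at ranks 880 and 4245, against CD4 Elf1 at 2.13-fold (rank 29213). These Treg positions lay 291 and 235 bp from the midpoint, and the region was no member at 100 or 200 bp. At 500 bp and at 300 bp from the peak edges a strong CD4 position came within reach. Its membership thus rests on the width of the window. On chromosome 17, 71201682 to 71201882, Treg Ets1 had 11.3-fold (rank 893) and Treg Elf1 5.94-fold, against CD4 Elf1 at 2.13-fold (rank 75596) and CD4 Ets1 at 1.21-fold (rank 32697). At the last of these both Treg folds were above both CD4 folds.

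Elf1 led at the tenth region, on chromosome 1, 146154298 to 146154498. Treg Elf1 ranked 1005 (15.3-fold) and Treg Ets1 3329 (5.99-fold), against CD4 Elf1 at rank 12000 (10.6-fold) and CD4 Ets1 at 15859 (3.99-fold). Both factors were again present in CD4, each at a lower fold than in Treg.

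At 14 members, in 12 loci, neither CD4 Elf1 nor CD4 Ets1 had a deposited position of any rank within 300 bp. They are 5.47% of the members, and over all Foxp3 peaks 98.2% had such a position. Of the 14, 10 had strong Treg Ets1 without strong Elf1, 3 strong Elf1 without strong Ets1, and 1 both. These are 6.90% (3.36 to 12.3) of the 145 members with Ets1 alone, 4.69% (0.977 to 13.1) of the 64 with Elf1 alone and 2.13% (0.0539 to 11.3) of the 47 with both. The intervals overlap. The one with both lay on chromosome 4, 11011958 to 11012158, where Treg Elf1 at 11011888 reached 25.9-fold (rank 3129) and Treg Ets1 at 11011958 6.79-fold (rank 2063). No Cbfb position lay there. It stayed a member under all 9 alternatives other than all deposited positions, but longer CD4 lists could not have removed a region without a CD4 position.

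The best Treg rank in this group belonged to a region on chromosome 6, 37413992 to 37414192, where Treg Ets1 at 37414064 was the sole position of any of the 5 libraries (11.3-fold, rank 1196). The same held on chromosome 17, 80569228 to 80569428 (Treg Ets1 12.6-fold, rank 3191), and on chromosome 12, 108972874 to 108973074 (3.33-fold, rank 4758). At these 3 regions a single library supported the ETS call.

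On chromosome 2, 162929035 to 162929235 and 162929142 to 162929342, a pair of overlapping peaks shared Treg Ets1 at 162929143 (7.13-fold, rank 3737) and Treg Cbfb at 162929332 (3.77-fold). On chromosome 7, 108704089 to 108704289, Treg Ets1 and Elf1 reached 34.0-fold and 36.7-fold, but at ranks of 4120 and 47366, and Cbfb 7.84-fold. The Elf1 fold was high for its rank, as it was at the region on chromosome 16, 32750903 to 32751103, also without CD4, with 36.7-fold at rank 14782.

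The other named regions without CD4 within 300 bp were chromosome 9, 102528430 to 102528630 (Treg Ets1 3.81-fold, rank 4316) and 120685886 to 120686086 (6.79-fold, rank 5568), and chromosome 14, 62397498 to 62397698 (Treg Elf1 5.94-fold, rank 8151). The region at 102528430 was no longer a member at 500 bp or at 300 bp from the peak edges. A strong CD4 position thus lay just beyond its window. The remaining 4 of the 14 had best Treg ranks of 8513 to 9686, close to the limit.

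Members with both Treg factors strong had CD4 positions too. Of these 47, 1 lacked any CD4 position. The best 2 by the weaker of their Treg ranks lay on chromosome 11, 21122966 to 21123166, and on chromosome 19, 11566447 to 11566647. On chromosome 11, Treg Elf1 had 9.22-fold (rank 1743) and Treg Ets1 8.39-fold (rank 2047), against CD4 Elf1 at 5.92-fold (rank 13976) and no CD4 Ets1. On chromosome 19, Treg Elf1 had 20.1-fold (rank 2260) and Treg Ets1 9.10-fold (rank 1878), against CD4 Ets1 at 19.0-fold (rank 17986) and CD4 Elf1 at 4.97-fold (rank 96757). On chromosome 19 Elf1 carried the difference in fold, while CD4 Ets1 had the higher fold of the Ets1 pair. The other 3 of the best 5 are the regions on chromosomes 18, 4 and 2 given above.

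Fold enrichment, which the rule did not rank by, did not always follow the rank. The contrast is the one that chose the members, so these counts are a description. Of 164 members with Elf1 in both lists, 120 (73.2%, 65.7 to 79.8) had a higher fold in Treg than in CD4 and 44 a lower one. The share with a higher fold in Treg was 41% over all Foxp3 peaks. Of 208 members with Ets1 in both lists, 128 (61.5%, 54.6 to 68.2) had a higher fold in Treg and 80 a lower one, and the share over all Foxp3 peaks was 29.7%. The median Treg minus CD4 log2 ratio of fold at the members was 0.74 (SD over members 1.47) for Elf1 and 0.32 (SD 1.16) for Ets1, while over all Foxp3 peaks it was -0.20 and -0.53.

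In many members the lower bound of the Treg fold did not exceed the CD4 fold. The CD4 fold was at or above the lower bound of the Treg fold at 121 of 164 members (73.8%) for Elf1 and at 186 of 208 (89.4%) for Ets1. These counts include the 44 and 80 members whose fold was lower in Treg. No such share was taken over all Foxp3 peaks, so the counts describe the members only. Differences of at least 2-fold in favour of Treg were found at 69 members for Elf1 and 53 for Ets1, and at least 2-fold in favour of CD4 at 18 and 22. Over all Foxp3 peaks with the factor in both lists, 11.8% for Elf1 and 7.49% for Ets1 were at least 2-fold higher in Treg, and 19% and 30.7% at least 2-fold lower. At the 138 members with both factors in both lists, the fold of both was higher in Treg at 61 and lower in Treg at 17, while over all 2222 such Foxp3 peaks it was higher in Treg at 12.3% and lower at 43.6%.

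**Figure D3:**
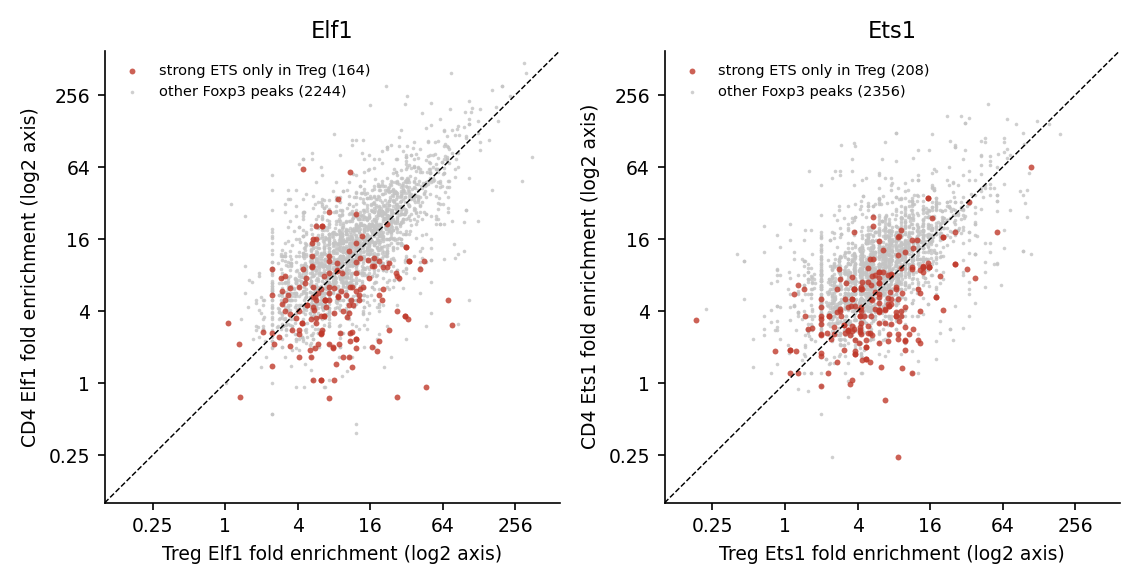
Fold enrichment in the Treg library (x) against the CD4 library (y), both on log2 axes, for Elf1 (left) and Ets1 (right) at Foxp3 peaks with a position in both lists. The members (red, 164 for Elf1 and 208 for Ets1) lie below the dashed line of equal fold in 120 and 128 cases, and above it in 44 and 80.

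The rule can also be read from the strong Treg positions, at Foxp3 peaks and away from them. The one-sided positions at Foxp3 peaks are largely those that chose the members, so these shares are a description and were not tested. Of the 10000 highest Treg Elf1 positions, 28.9% had no strong CD4 Elf1 or Ets1 position within 300 bp. At Foxp3 peaks the share was 6.91% (5.71 to 8.29) of 1562 positions, against 33.0% (32.0 to 34.0) of 8438 away from them. For Treg Ets1 the share over all 10000 was 42.8%, with 11.0% (9.58 to 12.6) of 1754 at Foxp3 peaks, against 49.6% (48.5 to 50.6) of 8246 away from them. The CD4 lists showed the same order. A strong CD4 Elf1 position had no strong Treg counterpart in 10.2% of cases at Foxp3 peaks, against 30.4% away, and a strong CD4 Ets1 position in 13.7%, against 35.7%. A lower one-sided share at Foxp3 peaks was thus found in both directions. The strong Treg positions at Foxp3 peaks also had higher scores, so the shares were taken within steps of rank. Among Treg Elf1 ranks 7501 to 10000 they were 12.9% (8.75 to 18.1) at Foxp3 peaks, against 67.0% (65.0 to 68.9) away. Among Treg Ets1 ranks 7501 to 10000 they were 20% (14.9 to 26.0), against 75.8% (73.9 to 77.5). The exception was Treg Elf1 ranks 1 to 2500, with 1.73% (0.793 to 3.25) at Foxp3 peaks, against 1.92% (1.36 to 2.63) away, where the intervals overlap.

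**Figure D4:**
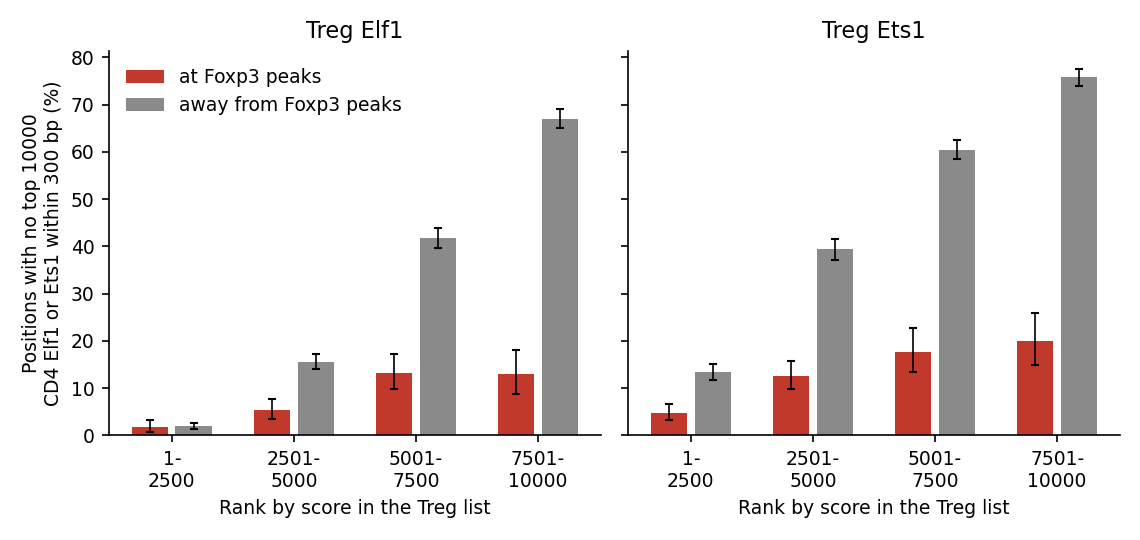
Share of strong Treg positions with no strong CD4 Elf1 or Ets1 position within 300 bp (y, percent, with exact 95% intervals) by rank in the Treg list (x), at Foxp3 peaks (red, left of each pair) and away from them (grey), for Treg Elf1 and Treg Ets1. In each step apart from Elf1 ranks 1 to 2500 the red bar is lower and the intervals do not overlap, as at ranks 7501 to 10000 with 12.9% against 67.0% for Elf1 and 20% against 75.8% for Ets1.

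Cbfb was the readout that the rule did not use. A Treg Cbfb position with an FDR of at most 0.01 lay within 300 bp at 61 members (23.8%, 18.7 to 29.5), near the 28.1% over all Foxp3 peaks. It was present at 31.5% (29.5 to 33.6) of the peaks with strong ETS in both cell types, 23.6% (19.1 to 28.5) of those strong only in CD4 and 14.2% (10.4 to 18.7) of those without strong ETS. With the 10000 highest Cbfb positions the number was 26 members (10.2%, 6.74 to 14.5), near the 11.1% over all peaks. The median Cbfb fold at the 77 members with a position of any FDR was 3.77, against 3.66 at the peaks strong in both cell types. The share at the members was thus close to that at the peaks strong only in CD4 and lower than that at the peaks strong in both. The intervals of the members and of the peaks strong in both barely overlapped (up to 29.53% and from 29.48%). The difference was not tested.

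Cbfb was set beside the Treg factor present. It was found at 14 of 47 members with both factors strong (29.8%, 17.3 to 44.9), 12 of 64 with Elf1 alone (18.8%, 10.1 to 30.5) and 35 of 145 with Ets1 alone (24.1%, 17.4 to 31.9). These intervals overlap. At the peaks strong in both cell types, Cbfb was found at 336 of 1028 with both factors (32.7%, 29.8 to 35.6), 98 of 431 with Elf1 alone (22.7%, 18.9 to 27.0) and 196 of 540 with Ets1 alone (36.3%, 32.2 to 40.5). With Ets1 alone the interval of the members lay below that of the shared peaks, a difference that was not tested.

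The 3 best Cbfb ranks at members lay on chromosomes 8, 4 and 18. On chromosome 8, 114168377 to 114168577, Cbfb at 114168437 ranked 44 (9.33-fold), and Treg Ets1 had 10.8-fold (rank 2284) and Treg Elf1 5.71-fold, against 2.56-fold for CD4 Ets1 and 3.50-fold for CD4 Elf1. On chromosome 4, 106466952 to 106467152, Cbfb at 106467001 ranked 68 (12.3-fold), and Treg Ets1 had 5.99-fold (rank 2013) with no Treg Elf1, against 4.13-fold for CD4 Ets1 (rank 10981) and 3.08-fold for CD4 Elf1. The third is the region on chromosome 18 at 68387304 described above. All 3 therefore combined high Cbfb scores with Treg Ets1 at ranks of 829 to 2284. No CD4 Cbfb list was analysed here, so whether Cbfb differs between the cell types at these regions was not tested.

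The surroundings of the members resembled those of other Foxp3 peaks in most measures. Another Foxp3 peak lay within 10 kb of 103 members (40.2%, 34.2 to 46.5), near the 38.6% over all peaks. Within 600 bp there was one at 50 members (19.5%, 14.9 to 24.9; over all peaks 14%), and between 600 bp and 10 kb at 73 (28.5%, 23.1 to 34.5; over all peaks 29%). A further strong Treg-only ETS position at 1 to 10 kb was found at 87 members (34.0%, 28.2 to 40.1), where all peaks had 29.5%, and a strong CD4-only position at 59 (23.0%, 18.0 to 28.7), where all peaks had 27.5%. When only Treg-only positions away from every Foxp3 peak were counted, 79 members (30.9%, 25.3 to 36.9) had one and all peaks had 27.8%. None of these member intervals excluded the value over all peaks, apart from that for a neighbour within 600 bp. In the narrower flank of 1 to 5 kb, 64 members (25%, 19.8 to 30.8) had a strong Treg-only position. That interval also excluded the value over all peaks, 19.1%, and the difference was not tested.

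**Figure D5:**
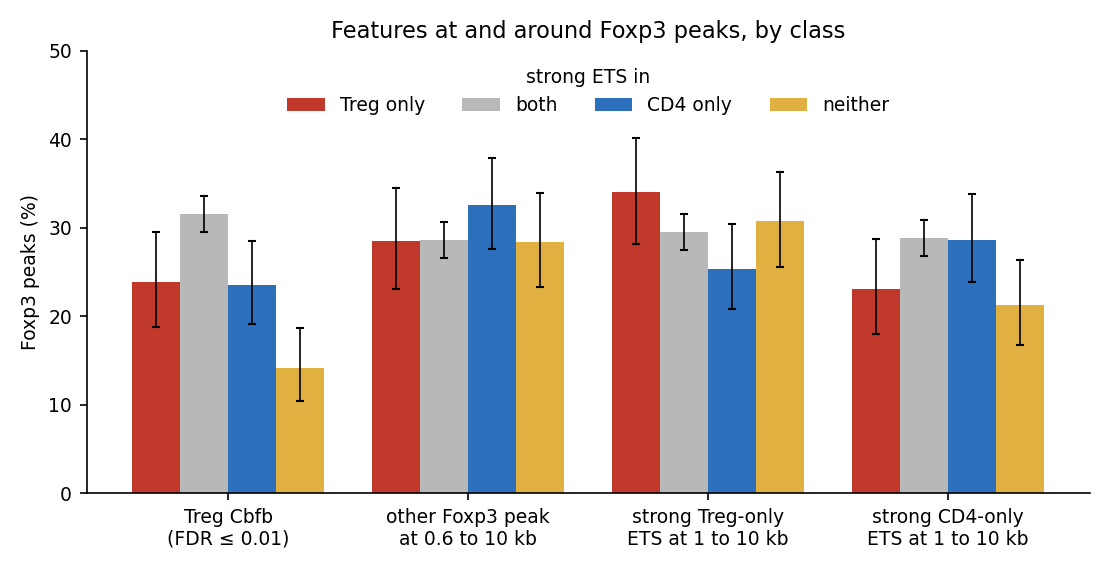
Share of Foxp3 peaks (y, percent, bars from 0 with exact 95% intervals) with a Treg Cbfb position, another Foxp3 peak, a strong Treg-only ETS position or a strong CD4-only ETS position, for peaks with strong ETS only in Treg (red), in both cell types (grey), only in CD4 (blue) and in neither (yellow). The members have 23.8, 28.5, 34.0 and 23.0%, and their intervals overlap those of the peaks strong in both in all 4 groups of bars. For Cbfb the overlap is narrow, up to 29.53% at the members and from 29.48% at the peaks strong in both. Overlap of intervals is no test of a difference.

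Strong Treg-only positions outnumbered strong CD4-only ones around the members at each distance from 1 to 50 kb. Between 1000 and 2500 bp there were 41 Treg-only and 16 CD4-only positions, and between 5 and 10 kb 72 and 38. The peaks without strong ETS showed the same order at each of these distances, with 28 and 25, and 71 and 34. Around the peaks strong in both cell types the counts were 211 and 232, and 464 and 434. Around those strong only in CD4 they were 27 and 37, and 57 and 71. The lists themselves held more Treg-only strong positions, 2890 for Elf1 and 4280 for Ets1, against 2709 and 3128 CD4-only. Between 25 and 50 kb from the 256 members there were 256 Treg-only and 140 CD4-only positions, or 2 and 1.09 per 100 peaks and kb. Around the 1999 peaks strong in both cell types the same window held 1334 Treg-only and 1256 CD4-only positions, or 1.33 and 1.26. Around the 335 peaks strong only in CD4 it held 195 of each, or 1.16, and around the 296 without strong ETS 185 and 137, or 1.25 and 0.926. Members share neighbourhoods, so these positions are not independent, and the difference was not tested.

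Neighbouring Foxp3 peaks were of the same class at some members. Of the 73 members with a further Foxp3 peak between 600 bp and 10 kb, the nearest such peak was itself a member at 13 (17.8%, 9.84 to 28.5), and over all Foxp3 peaks the share with a member as nearest neighbour was 7.65%. It was strong in both cell types at 44 (60.3%, 48.1 to 71.5). At the peaks strong in both cell types, a member was the nearest at 38 of 571 (6.65%, 4.75 to 9.02). Both peaks of a pair are counted, so the 13 are fewer than 13 separate cases.

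Groups of members within 10 kb of each other numbered 19 and held 43 members, with 5 groups of 3 and 14 of 2. Of the 5 groups of 3, the 3 described here lay on chromosomes 1 and 10. Between 21323412 and 21324160 on chromosome 1, 3 peaks shared Treg Elf1 at 21323806 (17.1-fold, rank 9686), and the sole CD4 position was Ets1 at 21324276 (2.19-fold, rank 213533). Between 69815453 and 69815930 on chromosome 1, 3 overlapping peaks shared Treg Elf1 at 69815631 (15.5-fold, rank 6866), Treg Ets1 at 69815607 (15.6-fold, rank 13899) and Cbfb at 69815673 (7.84-fold, rank 1962), against CD4 Ets1 at 69815649 (9.31-fold, rank 17746). In each of these groups 3 intervals rest on 1 strong Treg position.

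The group on chromosome 10 held a pair of sites. At 13764828 to 13765178, Treg Elf1 at 13765006 had 33.4-fold (rank 3681) and Treg Ets1 at 13764999 18.0-fold (rank 1468), against CD4 Elf1 at 10.5-fold (rank 16758) and CD4 Ets1 at 5.26-fold (rank 10812). At 13766306 to 13766506, Treg Ets1 had 5.19-fold (rank 7090) and Treg Elf1 7.34-fold (rank 16378), against CD4 Elf1 at 10.5-fold (rank 12552) and CD4 Ets1 at 3.64-fold (rank 40536). The first site was more than 3-fold more enriched in Treg for both factors, and the second was higher in CD4 for Elf1.

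Apart from all deposited positions, 9 alternative definitions were tried, and the median number that kept a member was 5. Of the 256, 5 stayed members under all 9. Longer CD4 lists could not have removed the 2 without a CD4 position, and the 5 were picked out after their values were seen. Besides the regions on chromosome 4 at 11011958 and on chromosome 7 at 108704089, they lay on chromosome 18, 39878830 to 39879030, on chromosome 8, 131073769 to 131073969, and on chromosome 4, 149932248 to 149932448. On chromosome 18, Treg Elf1 had 46.5-fold (rank 23306) and Treg Ets1 34.0-fold (rank 2191), against CD4 Elf1 at 0.920-fold (rank 90448). On chromosome 8, Treg Elf1 had 51.4-fold (rank 7630) and Treg Ets1 6.79-fold (rank 3855), against CD4 Ets1 at 3.16-fold (rank 135368). On chromosome 4 at 149932248, Treg Elf1 had 31.8-fold (rank 4498) and Treg Ets1 11.3-fold, against CD4 Ets1 at 9.31-fold (rank 73580). All 5 had a Treg Elf1 fold above 25, and CD4 lacked a position at 2 of them. Ranking by fold enrichment, which kept 31 of the 256, was among the 9 alternatives. High Treg folds and weak CD4 positions were therefore part of the choice of these 5 and support nothing.

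Members were found on all 19 numbered chromosomes and on X. Their share of the Foxp3 peaks ranged from 2.22% on chromosome 19 (2 of 90; 0.270 to 7.80) to 14.2% on chromosome 16 (16 of 113; 8.32 to 22.0). The interval of chromosome 19 alone lay below 8.87%, and 1 such case among 20 chromosomes was not tested further. Chromosome 1 had the most members (24 of 219), followed by chromosome 7 (23 of 185).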

How the data were processed

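Per the submitters' processing notes, the aligner was Bowtie 0.12.7 and the build mm9. The deposited lists of Elf1, Ets1 and Cbfb hold single-base positions. Per the file headers, every position has its score and E-value score, its FDR (a q-value) and its fold enrichment (a ratio) with a lower bound. The caller and control are not given in the sources used here. Foxp3 was deposited as one list of intervals, made per the labels from combined replicates. Depth is unknown, so list lengths and scores cannot be set against it.

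Positions were ranked by score within each library, and the best-ranked position within 300 bp of a peak midpoint was taken. A rank is a place within 1 library and no measure of occupancy across libraries. Regions named in the text followed a written rule: the best Treg ranks, no CD4 position, both Treg factors, the best Cbfb ranks, those next to the limits and 3 of the largest groups. The members and the rule were chosen with earlier results of these data known. Flanks of 1 to 10 kb excluded the positions that chose a member. The functions were tested on simulated lists. Alternatives changed the list length, the distance, the ranking by score and the flank width. Input and CD4 Cbfb libraries were not analysed here, and a planned motif search was not run because no genome of this build was used here. Software was Python 3.11.15 with pandas 2.3.3, scipy 1.17.1, numpy 2.4.6 and, for plots, matplotlib 3.10.9.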

Additional observations from a re-analysis of the deposited data

How the results depend on the processing

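The number of members fell as lists grew: 121 with the 20000 highest positions per library, 101 with an FDR of at most 0.01, 44 with all deposited positions and 82 with the CD4 limit alone at 20000, of which 82, 45, 14 and 82 were among the 256. Ranked by fold enrichment it was 124, with 31 shared. It was 379 with 5000 positions (127 shared), 287, 254 and 243 at 100, 200 and 500 bp, 243 from the peak edges, and 256 whether tied positions at the limit were kept or left out, an alternative chosen after seeing the data. The share that gained a CD4 position was 81.6% at 100 bp, 82.4% with an FDR of at most 0.01 and 67.97% with 20000 positions. The Cbfb share was 10.2% with the 10000 highest (over all peaks 11.1%) and 30.1% with all deposited positions (over all peaks 33.6%). At 100 bp it was 15.2%. Another Foxp3 peak lay within 25 kb of 48.4% (over all peaks 49.2%). A strong Treg-only position lay at 1 to 5 kb of 25% (19.8 to 30.8), where all peaks had 19.1%. At 1 to 25 kb it lay at 47.3%, where all peaks had 46.5%. Counting peaks within 600 bp once, also chosen after seeing the data, gave 95.4% for a CD4 position, 22.6% for Cbfb and 33.1% for a Treg-only position at 1 to 10 kb. The cause of the fall under ranking by fold was not tested; the longer lists add CD4 positions by construction. No paired analysis was possible because each ETS and Cbfb group had 1 library, and for the same reason no replicate could be left out.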
